A study of Rattus norvegicus with 36 samples.

Results

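The genes described here are 54 named genes of mitosis and cell division: the kinases and cyclins that drive a cell into mitosis, the machinery that attaches and separates the chromosomes, and the proteins that cut the daughter cells apart. They were chosen by name and read from an Affymetrix rat expression array through the probe sets annotated with the gene's symbol alone. Where a gene had several, the probe set of median mean intensity was taken. Of the 54 genes, 46 were measured, among 14217 genes on the array. Those 46 had 63 probe sets, and 13 of them had more than 1. The remaining 8 genes (Cdc25c, Bora, Nek2, Ndc80, Kif4a, Tpx2, Anln and Ncapg) had no probe set of 1 symbol and were not analysed here.

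The study profiled rat vocal fold (VF) mucosa, the layered lining of the larynx that vibrates to make voice, after surgical injury, together with fibroblasts grown from it, to follow gene expression through healing and scar formation. All animals were male Fischer 344 rats of 120 days at the start. Injured mucosae, stripped on both sides under an endoscope, were taken when 3, 14 or 60 days had passed since injury (post-injury, PI), with rats then 123, 134 and 180 days old and 5 arrays per time point. Uninjured mucosae of the same ages served as controls, on 3 arrays at 3 days, 3 at 14 days and 2 at 60 days by the sample labels. Each mucosa array held tissue pooled from 4 rats, so the spread between arrays is that between pools. Primary fibroblasts were grown as explants, 1 rat per culture, from mucosae of rats 180 days old, and were used at passage 1 and 80% confluence. Naive fibroblasts (3 cultures) came from uninjured rats and scar fibroblasts (4 cultures) from rats at 60 days PI. Further scar fibroblast cultures received 50 nM of a scramble siRNA (3 cultures) or of an siRNA against gp46 (3 cultures) for 1 h, followed by 24 h in fresh medium, so that transfection and the added time in culture cannot be told apart when they are set against untransfected scar fibroblasts.

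Values are log2 RMA signals, on which a difference of 1 is a 2-fold change, and a level is compared only within a probe set. Differences were called at an adjusted p under 0.05 over all 14217 genes. Across all genes, 3 mucosa arrays deviated together from the means of their groups, namely 3 days PI replicate 5, 14 days control replicate 3 and 60 days PI replicate 4 (Pearson r of their deviations 0.45 to 0.61). Counts that rest on them are also given without them. Krt5, a keratin of basal epithelium, read 12.95 to 13.65 on the mucosa arrays. By the median of each list, basal epithelial markers lay 5.22 to 6.01 log2 units below the control mucosa in every culture, and macrophage markers 4.55 to 5.22. Other lists lay elsewhere. The shifts were -1.14 to -0.28 for suprabasal epithelium, -0.88 to -0.37 for lymphocytes and -1.18 to -0.70 for neutrophils. They were -2.79 to -2.09 for endothelium and -7.54 to -3.19 for mature muscle. Fibroblast markers (0.80 to 1.38) and myoblast markers (0.10 to 4.41) lay above the control mucosa. In pooled tissue, more dividing cells and more mitosis transcripts per cell cannot be told apart.

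Cells enter mitosis when the kinase Cdk1 is joined by cyclins A and B. The spindle checkpoint then holds the chromosomes until every kinetochore is attached, after which the anaphase-promoting complex, a ubiquitin ligase, destroys securin and the cyclins so that the sister chromatids part and the cell divides. In a healing mucosa, dividing cells are known to include those of the epithelium, fibroblasts, endothelium and, where muscle is hurt, muscle precursors. Most genes of this group are transcribed late in the cell cycle and are nearly silent in resting cells, and their promoters are known for a short element, the cell cycle genes homology region or CHR, and for CCAAT boxes, which bind the factor NF-Y.

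The promoters show what the genes share in sequence. A promoter here is the 300 bases from 250 before to 50 after the gene start in RefSeq (GRCr8), and 46 of the 54 genes had an entry, which leaves out Ccna2, Pbk, Foxm1, Aurkb, Tpx2, Racgap1, Cdca2 and Ube2c. The CHR (TTTGAA or TTCGAA), searched on both strands, was in 33 of the 46 promoters (71.7%), against 19.7% of all 33469 rat promoters of this length. CCAAT, also on both strands, was in 34 (73.9%), against 37.5% of all. Both were in 27 (58.7%), against 7.95% of all. The E2F motif (GCGGGAA or GCGCGAA), best known from genes of DNA replication, was in 5 (10.9%), against 5.56% of all and 65.5% of the 29 promoters of a list of DNA replication genes. Within 50 bases of the gene start, 22 promoters held a CHR, and the share of all promoters with a CHR this close was not counted. Counted over the 39 measured genes with a promoter, the shares were 69.2% for the CHR, 74.4% for CCAAT and 10.3% for E2F, against 14.3%, 36.8% and 9.48% of the 13243 promoters of all measured genes. A match is a description of the letters and not a binding site.

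Printed here are windows of 140 bases, from 120 before to 20 after the start, chosen because they hold the recurring arrangement or depart from it, on the gene's own strand of GRCr8 with the motif letters in capitals (CHR as TTTGAA, or TTCAAA where it lies on the other strand, and CCAAT, or ATTGG where it does). They are Cdk1 (chr20:19265173-19265312, plus strand), Ccnb2 (chr8:79981639-79981778, minus strand), Plk1 (chr1:186147538-186147677, plus strand), Prc1 (chr1:143659361-143659500, plus strand), Ttk (chr8:93634519-93634658, plus strand), Cenpf (chr13:103760867-103761006, minus strand) and Ccnb1 (chr2:33655206-33655345, minus strand), which has CCAAT without these CHR letters.
Cdk1: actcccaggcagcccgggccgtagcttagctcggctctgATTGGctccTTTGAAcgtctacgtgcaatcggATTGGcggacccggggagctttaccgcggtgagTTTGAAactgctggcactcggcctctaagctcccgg
Ccnb2: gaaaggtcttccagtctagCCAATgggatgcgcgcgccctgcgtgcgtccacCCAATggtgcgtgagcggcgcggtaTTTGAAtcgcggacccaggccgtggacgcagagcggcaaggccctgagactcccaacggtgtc
Plk1: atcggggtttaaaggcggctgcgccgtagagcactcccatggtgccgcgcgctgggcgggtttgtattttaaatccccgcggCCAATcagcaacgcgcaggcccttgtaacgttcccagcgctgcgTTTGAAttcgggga
Prc1: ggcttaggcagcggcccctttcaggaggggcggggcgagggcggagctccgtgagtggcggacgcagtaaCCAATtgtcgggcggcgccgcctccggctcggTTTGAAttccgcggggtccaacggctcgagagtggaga
Ttk: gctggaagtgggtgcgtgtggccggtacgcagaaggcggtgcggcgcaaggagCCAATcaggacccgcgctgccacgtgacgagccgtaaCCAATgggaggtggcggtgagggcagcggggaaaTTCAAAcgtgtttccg
Cenpf: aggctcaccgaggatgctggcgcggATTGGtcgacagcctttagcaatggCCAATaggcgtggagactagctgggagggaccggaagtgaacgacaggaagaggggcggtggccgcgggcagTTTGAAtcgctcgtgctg
Ccnb1: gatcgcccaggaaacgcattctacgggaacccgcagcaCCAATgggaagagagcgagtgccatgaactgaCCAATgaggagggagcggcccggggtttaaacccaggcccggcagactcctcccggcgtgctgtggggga
In every window but that of Ccnb1, a CHR lay closer to the start than the nearest CCAAT. The windows were chosen for their arrangement, and this order was not counted over all promoters. It was reversed in Cdc20 (first base of the CHR at -51, of CCAAT at -41) and in Mki67 (-99 and -94), among others.

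At 3 days PI nearly the whole group rose. Of the 46 genes, 43 were higher than in the 3-day controls and 0 were lower, where 14.6% of all 14217 genes were higher and 12% lower. The median difference over the 46 was 1.67 log2 units, a 3.17-fold change, against 0.01 over all genes. In 36 genes the difference exceeded 2-fold and in 9 it exceeded 4-fold. The 5 injured and the 3 control arrays did not overlap, with the injured higher, in 45 of the 46, against 17.7% of all genes. The median shift of the 46 genes from the control mucosa mean was 1.65, 1.68, 1.63, 1.82 and 1.44 on the 5 injured arrays, and -0.21, 0.32 and -0.15 on the 3 controls, so control replicate 2 was the highest of its group. The count was 43 again, with a median of 1.66, without the 3 arrays that deviate together.

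**Figure D1:**
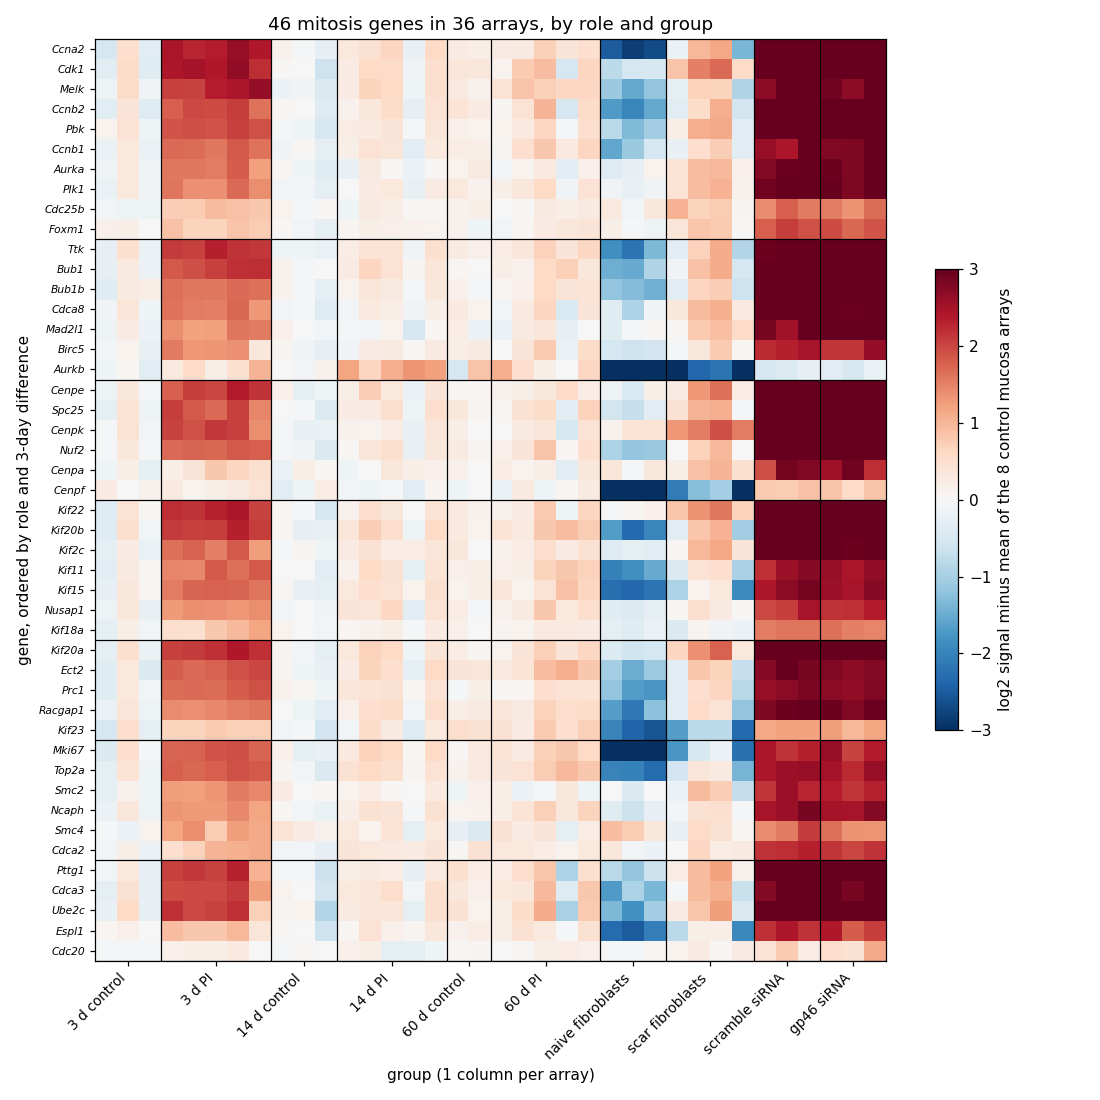
Log2 signal of the 46 measured mitosis genes minus the mean of the 8 control mucosa arrays, 1 row per gene grouped by role and 1 column per array over the 36 arrays, with the colour scale stopped at 3 log2 units either way. The 5 arrays at 3 days PI and the 6 siRNA arrays are raised across nearly all rows, the 14-day and 60-day arrays are close to the controls, and the naive fibroblasts are the lowest.

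All 10 measured kinases, cyclins and regulators of mitotic entry rose at 3 days PI, with a median of 1.75. Ccna2, cyclin A, read 6.44, 7.44 and 6.63 on the control arrays and 9.39, 9.23, 9.28, 9.55 and 9.34 on the injured arrays. The groups lay far apart, and the injured arrays were close to each other. Its difference of 2.52 ± 0.19 (SE; 5.74-fold, adjusted p = 4.72e-09) was the largest of the 46. Cdk1, the mitotic kinase itself, read 7.73, 8.60 and 7.68 in controls and 10.48, 10.55, 10.44, 10.71 and 10.25 after injury. Again no arrays overlapped, at 2.48 ± 0.27 (5.59-fold, adjusted p = 5.97e-07). Melk, a kinase of proliferating cells, followed at 2.20 ± 0.18 (adjusted p = 1.14e-08). The smallest rise of the role was that of Foxm1, a transcription factor of late cell cycle genes, at 0.65 ± 0.10 (adjusted p = 5.54e-05).

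Of the 7 genes of the spindle checkpoint and the chromosomal passenger complex, 6 rose, with a median of 1.51 over the 7. Ttk, the kinase that starts checkpoint signalling at unattached kinetochores, read 6.13, 6.85 and 6.17 in controls and 8.47, 8.42, 8.71, 8.53 and 8.48 after injury. Bub1, a checkpoint kinase at the kinetochore, read 7.09, 7.59 and 7.15 in controls and 9.18, 9.26, 9.37, 9.51 and 9.54 after injury. Both were clear of their controls on every injured array. The differences were 2.14 ± 0.15 for Ttk (adjusted p = 1.06e-09) and 2.09 ± 0.14 for Bub1 (adjusted p = 1.03e-09). Bub1b, a subunit of the complex that blocks the anaphase-promoting complex, rose by 1.61 ± 0.14 (adjusted p = 2.44e-08). Aurkb, the kinase of the passenger complex, was the exception of this role and is described apart.

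Among the 6 kinetochore genes, 5 rose, with a median of 1.74 over the 6. Cenpe, a kinesin that moves chromosomes to the spindle equator, read 5.61, 6.11 and 5.74 in controls and 7.57, 7.84, 7.78, 8.16 and 7.93 at 3 days PI. Spc25, part of the complex that grips microtubules, read 7.40, 8.07 and 7.50 against 9.74, 9.50, 9.36, 9.71 and 9.12. Neither gene overlapped between the groups. Cenpe rose by 2.04 ± 0.17 (adjusted p = 1.25e-08), Spc25 by 1.83 ± 0.21 (adjusted p = 1.42e-06) and Cenpk, an inner kinetochore protein, by 1.81 ± 0.19 (adjusted p = 5.33e-07). Cenpa, the histone variant that marks the centromere, rose by 0.57 ± 0.15 (adjusted p = 0.00708), the smallest difference that was called.

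The 7 kinesins and spindle proteins all rose, with a median of 1.66. Kif22, a chromosome-bound kinesin, read 7.11, 7.94 and 7.55 in controls and 9.72, 9.67, 9.80, 9.93 and 9.53 after injury. For Kif20b, also a kinesin, the controls read 6.15, 7.02 and 6.46 and the injured arrays 8.63, 8.58, 8.60, 8.86 and 8.60. Control replicate 2 was the highest control for both and was still well below the injured arrays. Kif22 rose by 2.20 ± 0.20 (adjusted p = 3.74e-08), Kif20b by 2.11 ± 0.19 (adjusted p = 4.73e-08) and Kif2c, a kinesin that shortens microtubules, by 1.69 ± 0.13 (adjusted p = 8.99e-09). Kif18a, which limits microtubule growth at the kinetochore, had the smallest rise of the role, at 0.86 ± 0.13 (adjusted p = 5.47e-05).

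The 5 cytokinesis genes rose as well, with a median of 1.80. Kif20a, a kinesin of the central spindle, read 7.09, 7.86 and 7.20 in controls and 9.45, 9.50, 9.59, 9.80 and 9.59 after injury. Ect2, the exchange factor that switches on RhoA at the division plane, read 7.76, 8.45 and 7.70 in controls and 9.94, 9.82, 9.89, 10.04 and 10.13 after injury. In each, the lowest injured array was above the highest control. The differences were 2.20 ± 0.18 for Kif20a (adjusted p = 1.13e-08), 1.99 ± 0.20 for Ect2 (adjusted p = 3.04e-07) and 1.80 ± 0.14 for Prc1, which bundles central spindle microtubules (adjusted p = 5.09e-09). Kif23, the motor of the centralspindlin complex, rose by 0.80 ± 0.20 (adjusted p = 0.00573) and lost its call without control replicate 1, at 0.60.

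All 6 genes of chromosome structure rose, with a median of 1.38. Mki67, which coats mitotic chromosomes and is widely used as a mark of cycling cells, read 7.83, 8.78 and 8.21 in controls and 10.00, 10.04, 10.16, 10.20 and 10.00 after injury. Top2a, the topoisomerase that untangles sister chromatids, read 8.05, 8.73 and 8.18 against 10.12, 10.04, 10.11, 10.22 and 10.16. The injured arrays of both genes agreed closely and lay above every control. Mki67 rose by 1.81 ± 0.18 (adjusted p = 1.94e-07), Top2a by 1.81 ± 0.16 (adjusted p = 2.4e-08) and Smc2, a condensin subunit, by 1.46 ± 0.13 (adjusted p = 2.44e-08). The smallest rise was that of Cdca2, a phosphatase-targeting protein of anaphase chromatin, at 0.91 ± 0.13 (adjusted p = 1.35e-05).

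Of the 5 genes of anaphase and protein destruction, 4 rose, with a median of 1.78 over the 5. Pttg1, securin, read 7.76, 8.16 and 7.61 in controls and 9.89, 9.97, 9.87, 10.15 and 8.90 after injury. Cdca3, which helps remove the mitotic brake Wee1, read 7.68, 8.42 and 7.71 in controls and 9.92, 9.93, 9.93, 10.06 and 9.21 after injury. For both, injured replicate 5 was the low array of its group, though above the controls. Pttg1 rose by 1.91 ± 0.31 (adjusted p = 8.47e-05), Cdca3 by 1.87 ± 0.26 (adjusted p = 1.37e-05) and Ube2c, the ubiquitin-conjugating enzyme of the anaphase-promoting complex, by 1.78 ± 0.39 (adjusted p = 0.00163). Without the 3 arrays that deviate together, of which injured replicate 5 is one, the differences were 2.13 (adjusted p = 1.07e-08), 2.02 (adjusted p = 1.66e-07) and 2.05 (adjusted p = 1.02e-06). Espl1, separase, rose by 0.70 ± 0.15 (adjusted p = 0.00168).

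**Figure D2:**
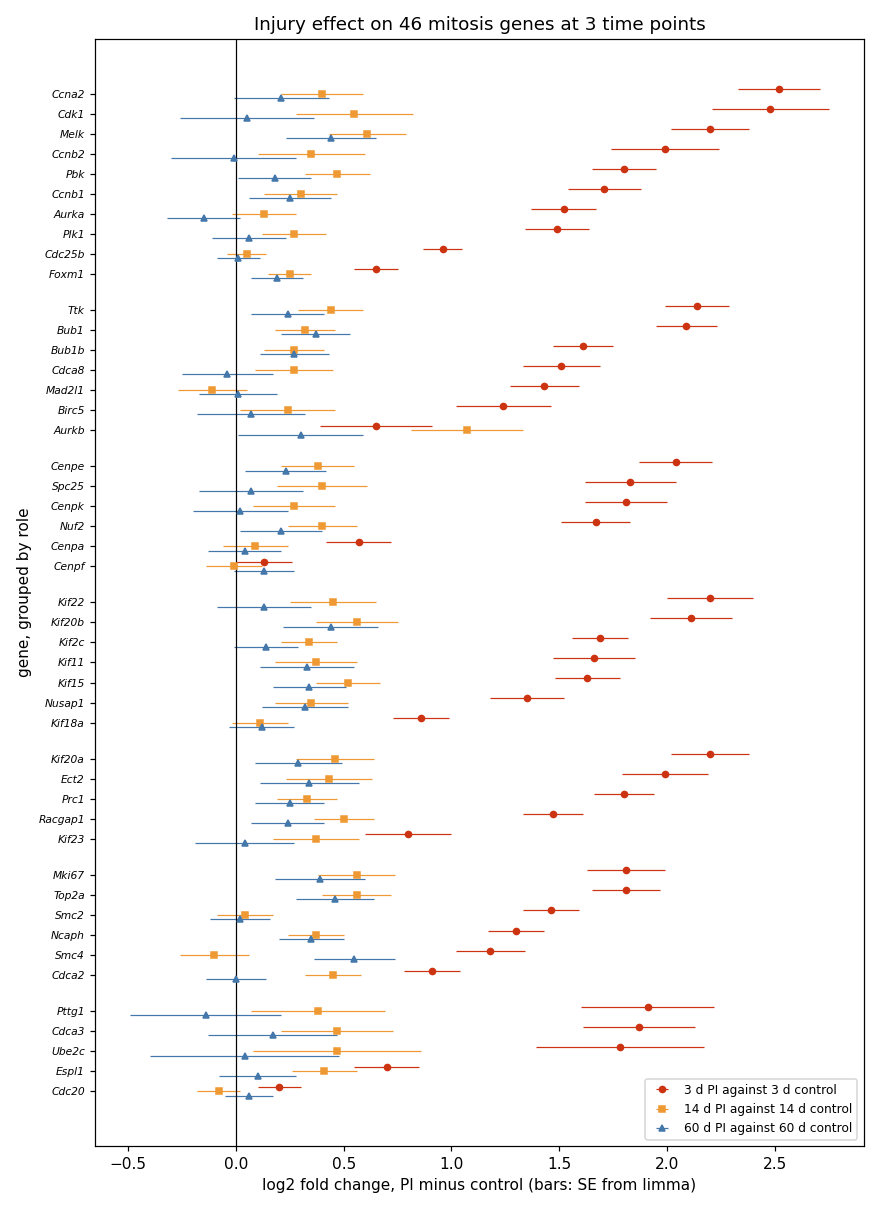
Difference between injured and control mucosa (log2, with its limma standard error) for each of the 46 mitosis genes at 3, 14 and 60 days PI, grouped by role. The 3-day points run from 0.13 to 2.52 and stand apart from the 14-day and 60-day points for most genes, while Aurkb has its largest difference at 14 days.

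The 3 genes that did not pass the test at 3 days PI differed in kind. Cdc20, the activator of the anaphase-promoting complex, read 5.33, 5.33 and 5.35 in controls and 5.52, 5.58, 5.54, 5.66 and 5.39 after injury on the probe set the rule selects. These levels are low on a scale that ran from 2.72 to 14.74, and the difference was 0.20 ± 0.10 (adjusted p = 0.149). Cdc20 has 5 probe sets, and tested each on its own, 3 of them were called at 3 days PI, at 1.74 ± 0.15 (adjusted p = 4.26e-08), 1.53 ± 0.20 (adjusted p = 8.07e-06) and 0.40 ± 0.11 (adjusted p = 0.00856). That Cdc20 does not appear among the 43 genes therefore depends on the probe set taken. Cenpf, a large kinetochore protein, read 9.62, 9.37 and 9.49 in controls and 9.66, 9.48, 9.54, 9.64 and 9.80 after injury. The groups overlapped, at 0.13 ± 0.13 (adjusted p = 0.491), from the only probe set of the gene.

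Aurkb, read from its only probe set, had its largest difference from the mucosa controls at 14 days. The change of this difference between 3 and 14 days was not called when tested directly, so a time course of its own was not established for Aurkb. Its values were 9.56, 9.76 and 9.34 in the 3-day controls and 9.99, 10.27, 9.87, 10.16 and 10.72 at 3 days PI, a difference of 0.65 ± 0.26 that was not called (adjusted p = 0.0687) although the groups did not overlap. At 14 days the controls read 9.70, 9.61 and 9.81 and the injured arrays 10.87, 10.33, 10.77, 11.01 and 10.93. All 5 injured arrays were above the controls, and Aurkb was higher by 1.07 ± 0.26 (2.11-fold, adjusted p = 0.023). At 60 days the 2 controls read 9.19 and 10.55, far apart, and the injured arrays 10.78, 10.19, 9.87, 9.71 and 10.32, within which the difference of 0.30 ± 0.29 was not called (adjusted p = 0.803). The 14-day call was lost when any of the 3 controls was left out (1.03 to 1.12), when injured replicate 5 was left out (1.04) and with the replicate number as a block (0.95).

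**Figure D3:**
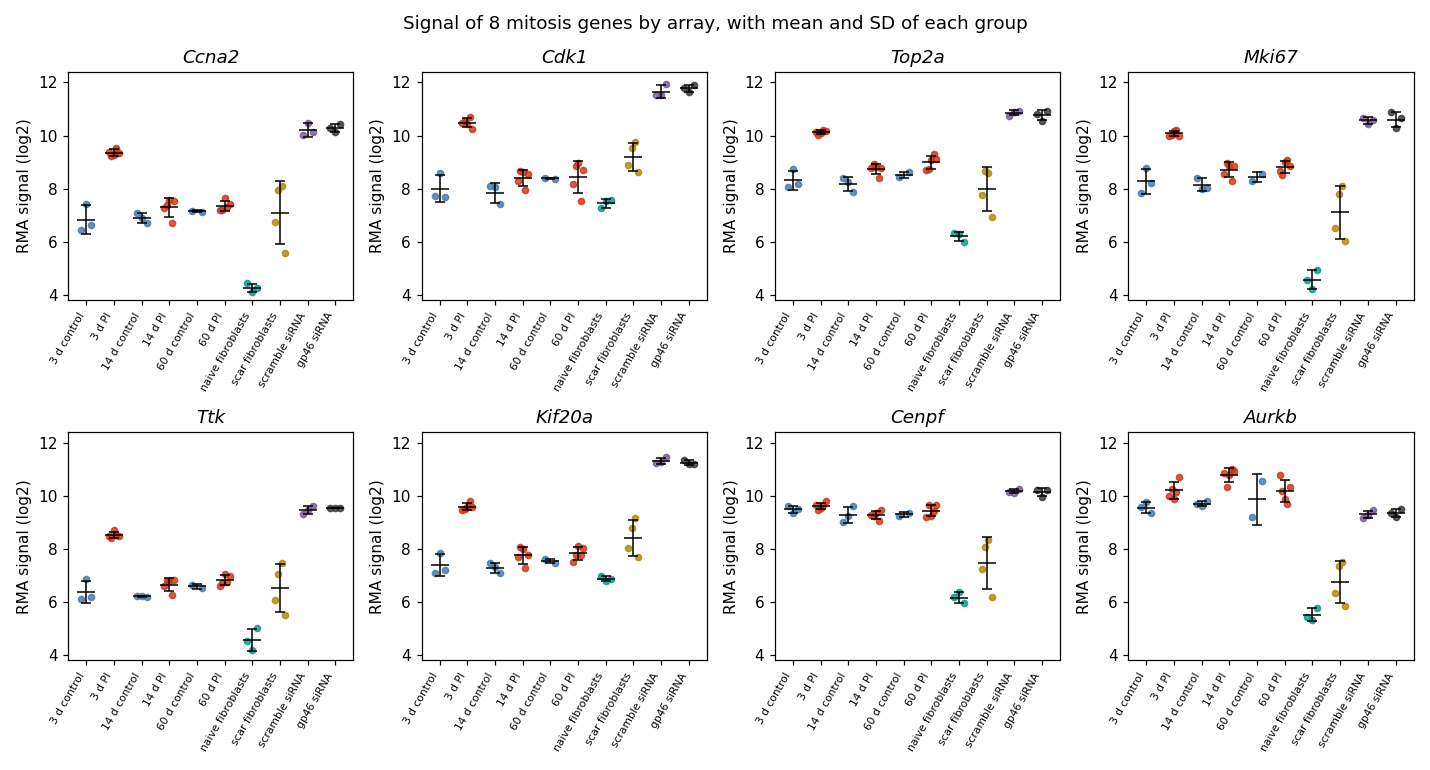
Log2 RMA signal of Ccna2, Cdk1, Top2a, Mki67, Ttk, Kif20a, Cenpf and Aurkb on each array by group, with the group mean and SD. The first 6 genes peak at 3 days PI among the mucosa groups and are highest in the siRNA cultures, Cenpf stays between 9.02 and 9.80 on the mucosa arrays, and Aurkb is highest in mucosa at 14 days PI.

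By 14 days PI the group was close to its controls. Aurkb was the only gene of the 46 to be called, where 2.08% of all genes were higher and 0.95% lower. The median over the 46 was 0.37, and 42 of the 46 differences were positive. Without the multiple-testing adjustment, 20 genes were higher at p under 0.05, against 7.34% of all genes, and the groups did not overlap in 8 (Espl1, Foxm1, Cdca2, Top2a, Kif15, Kif2c, Aurkb and Ttk), against 7.94% of all genes higher without overlap. Top2a, for example, read 8.39, 8.24 and 7.89 in the 14-day controls and 8.77, 8.92, 8.80, 8.40 and 8.76 after injury. Its injured arrays were above the controls, replicate 4 only just, and the difference of 0.56 ± 0.16 missed the threshold (adjusted p = 0.0545). The median shift of the group was 0.18, 0.37, 0.37, -0.10 and 0.38 on the injured arrays and 0.04, -0.05 and -0.26 on the controls. The median fell to 0.26 without the 3 arrays that deviate together. The number of calls was not stable at this time point, at 24 with array weights, 8 without injured replicate 4, and 0 without injured replicate 5 or any of the 3 controls. The shares of all genes called in these fits were not counted.

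At 60 days PI 0 of the 46 genes were called, where 0.0211% of all genes were higher and 0.0352% lower, and 5 genes (Melk, Ncaph, Smc4, Top2a and Bub1) had an unadjusted p under 0.05. The share of all genes higher at an unadjusted p under 0.05 was 2.6%. The median was 0.17, and it was 0.22 without the 3 arrays, 0.07 with the replicate number as a block, 0.10 without injured replicate 3 and 0.32 with the controls of all ages pooled. The lognormal-normal model called 0 as well. The 2 control arrays limit this comparison, and with the controls of all ages pooled 12 of the 46 genes were called higher. The share of all genes called in that pooled fit was not counted, so the 12 cannot be set against it. Top2a read 8.44 and 8.61 in the controls and 8.70, 8.75, 9.07, 9.29 and 9.12 after injury, a difference of 0.46 ± 0.18 (adjusted p = 0.418). Its groups did not overlap, as in 6 other genes (Ccna2, Melk, Ncaph, Racgap1, Cenpe and Bub1), against 4.4% of all genes higher without overlap.

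The change in the injury effect was tested directly. Between 3 and 14 days the effect was larger at 3 days in 36 of the 46 genes, where this held for 5.47% of all genes, and the median of the change was 1.32. Ccna2 changed the most, at 2.12 ± 0.27 (adjusted p = 3.75e-05), ahead of Cdk1 at 1.93 ± 0.38 (adjusted p = 0.0026) and Bub1 at 1.77 ± 0.20 (adjusted p = 1.2e-05). The 10 genes without a call were Cdc20, Espl1, Ube2c, Foxm1, Cdca2, Kif23, Cenpa, Cenpf, Birc5 and Aurkb, the last with the larger effect at 14 days (-0.43 ± 0.36, adjusted p = 0.564). Against 60 days the effect at 3 days was larger in 38 genes, where 8.7% of all genes were, with a median of 1.45. Between 14 and 60 days 0 of the 46 were called (0.0774% of all genes), with a median of 0.18 that was 0.39 with the replicate number as a block, 0.09 without 14-day control replicate 3 and 0.11 with array weights, with centred arrays or with repeated quantile normalization. Without the 3 arrays that deviate together, the effect changed from 3 days in 40 genes against 14 days (median 1.44) and in 40 against 60 days (median 1.44), and in 0 between 14 and 60 days (median 0.04).

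Within the injured mucosa, 45 of the 46 genes were lower at 14 than at 3 days PI, where 18.4% of all genes were lower. Cdk1 fell by 2.08 ± 0.23 (adjusted p = 8.79e-07) and Ccna2 fell by 2.07 ± 0.17 (adjusted p = 1.11e-08). Cenpf was among them, lower by 0.35 ± 0.11 (adjusted p = 0.0179). Aurkb alone was higher, at 0.58 ± 0.22 (adjusted p = 0.0496), where 15.8% of all genes were higher. This call was lost in 8 of the 10 fits that each left out 1 array. It was also lost with the mean of a gene's probe sets. Aurkb has 1 probe set, so its own signal was the same in that fit. Without the 3 arrays that deviate together, 45 genes were again lower and Aurkb higher. From 14 to 60 days PI 0 of the 46 were called (2.1% of all genes in either direction). These comparisons share arrays with those against the controls. Among the controls themselves, 0 of the 46 genes differed between 180 and 123 days of age (0.0211% of all genes in either direction), with differences of -0.30 to 0.58 and 2 genes at an unadjusted p under 0.05, against 6.19% of all genes.

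The genes varied together from array to array. Over the 23 mucosa arrays, the Pearson correlation of each gene with the median of the other 45 had a median of 0.97, and it exceeded 0.9 in 36 genes. With each group's mean removed the median was 0.74. The points share their RNA pools and their normalization. Over the 13 fibroblast arrays the median was 0.99, and 0.93 within groups. The genes least like the rest in the mucosa were Aurkb (0.13), Cenpf (0.49) and Cdc20 (0.51). In the fibroblasts, by contrast, Aurkb was at 1.00 and Cenpf at 0.98, with Cdc20 at 0.78. Ccna2 was most like Kif20a, Ttk, Depdc1 and Prc1 over the mucosa arrays (each 0.99). Aurkb was most like Cdkl4 (0.95), Odad4 (0.94), Dnah7 (0.93), Ak7 (0.92) and Ccdc65 (0.92), of which Odad4, Dnah7, Ak7 and Ccdc65 are known from motile cilia. At 14 days PI, Dnah7 was higher by 1.43 ± 0.33 (adjusted p = 0.0176) and Odad4 by 0.98 ± 0.24 (adjusted p = 0.0238). Cenpf was most like Psat1 (0.91), an enzyme of serine synthesis, and Cep78 (0.84), a centriole protein.

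Other genes of the cell cycle, taken as lists, followed in part. Of 45 mitotic genes outside the 46, 40 were higher at 3 days PI and 0 lower, where 14.6% of all genes were higher and 12% lower. The median of the 45 was 1.20. The largest were Plk4, the kinase of centriole duplication (2.93 ± 0.22, adjusted p = 4.67e-09), Depdc1 (2.72 ± 0.21), Ska1, a microtubule-binding kinetochore protein (2.52 ± 0.24), and Pimreg (2.22 ± 0.26). Of 28 DNA replication genes, 26 were higher and 0 lower, with a smaller median of 0.88. Tk1, thymidine kinase (1.94 ± 0.22), Uhrf1, which maintains DNA methylation (1.83 ± 0.15), Dtl (1.64 ± 0.13) and Mcm6, a helicase subunit (1.50 ± 0.14), led this list, whereas Pcna, the sliding clamp, was not called at 0.31 ± 0.15 (adjusted p = 0.133). Of 25 G1 cyclins, E2F factors and pocket proteins, 14 were higher and 2 lower, with a median of 0.44. The repressors E2f8 (2.03 ± 0.21) and E2f7 (1.54 ± 0.16), Mybl1 (1.51 ± 0.14) and cyclin E gene Ccne2 (1.37 ± 0.14) rose, and cyclin D gene Ccnd2 fell by 0.87 ± 0.14 (adjusted p = 8.68e-05).

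The subunits of the anaphase-promoting complex and of cohesin, which are present through the whole cycle, were listed with some of their regulators. This list had the smallest median of the cell cycle lists, at 0.18. Of its 22 genes, 7 (31.8%) were higher, where 14.6% of all genes were, and 0 were lower. Cdc27 (0.89 ± 0.21, adjusted p = 0.003) and Anapc10 (0.69 ± 0.15, adjusted p = 0.00198) led it. Of 17 cell cycle inhibitors, 7 were higher and 1 lower. Cdkn3, a phosphatase that acts on cyclin-dependent kinases (1.90 ± 0.37, adjusted p = 0.000579), Cdkn1c, p57 (1.35 ± 0.16, adjusted p = 1.43e-06), and Cdkn1a, p21 (1.03 ± 0.18, adjusted p = 0.000182), were the largest, and Wee1, which holds Cdk1 inactive, fell by 0.48 ± 0.16 (adjusted p = 0.0327). At 14 days PI, when the 46 mitosis genes had a single call, Cdkn1a (1.02 ± 0.18, adjusted p = 0.00214) and Cdkn1c (0.74 ± 0.16, adjusted p = 0.0102) were still higher than in controls. In promoter letters, the 44 other mitotic genes with a promoter had a CHR in 70.5%, close to the 71.7% here, and the 19 genes of the anaphase-promoting complex and cohesin in 15.8%.

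**Figure D4:**
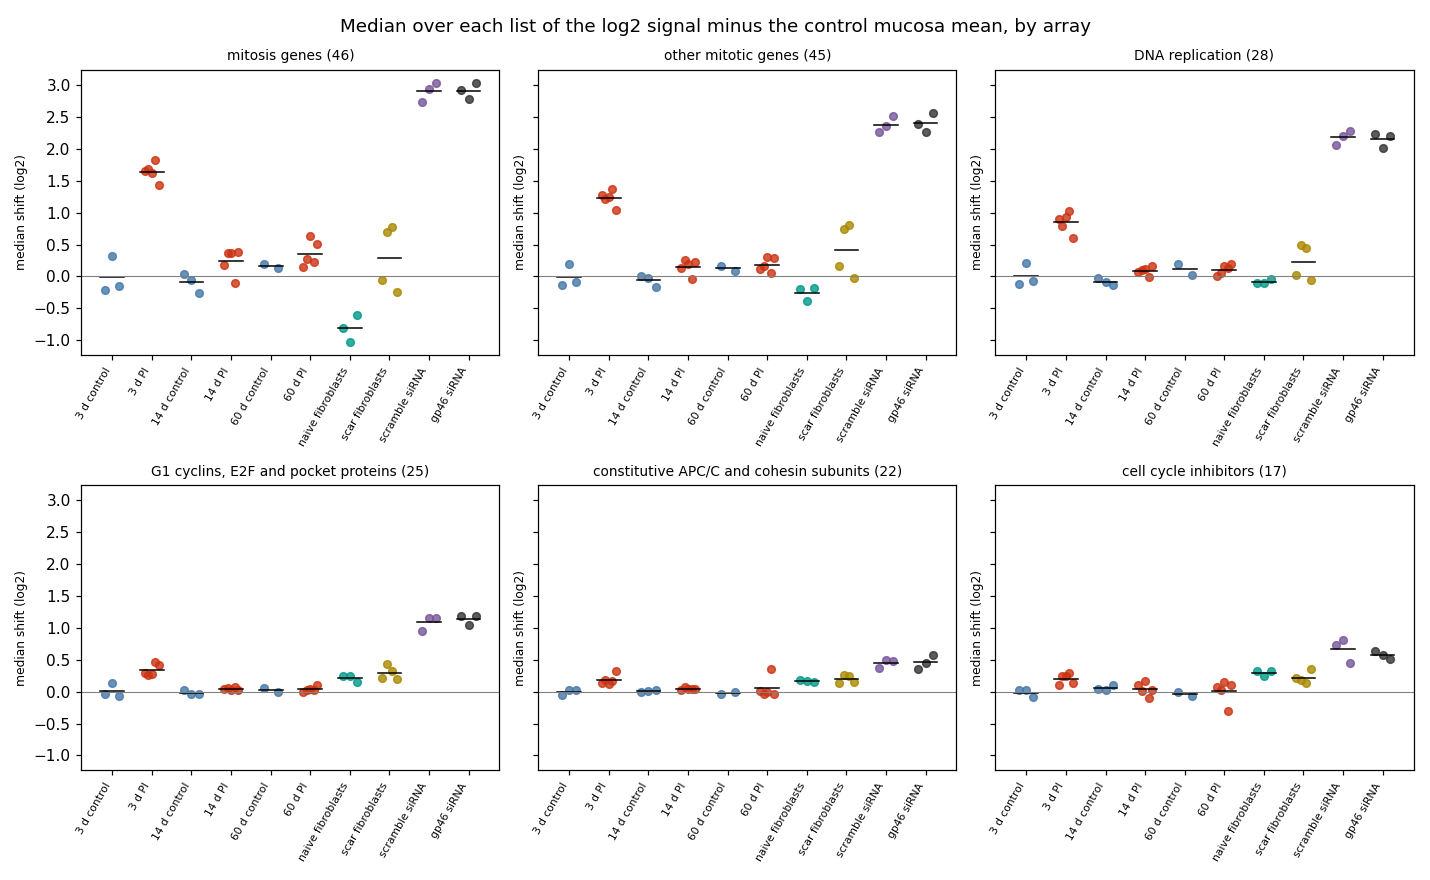
Median shift per array (log2, from the mean of the 8 control mucosa arrays) of the 46 mitosis genes and of 5 other cell cycle lists, with 1 point per array and a line at each group mean. At 3 days PI the mitosis genes lie at 1.44 to 1.82, the other mitotic genes at 1.05 to 1.37, the DNA replication genes at 0.61 to 1.03, and the anaphase-promoting complex and cohesin at 0.12 to 0.32.

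Markers of several cell types moved with the mitosis genes at 3 days PI, where 14.6% of all genes were higher and 12% lower. All 5 measured myoblast markers rose, with a median of 3.41, among them Myh3, embryonic myosin (6.22 ± 0.22), and Mymk, a myoblast fusion protein (5.33 ± 0.20). The median shift of the myoblast list was 2.55 to 3.49 on the injured arrays and -0.22 to 0.13 on the controls. Of 5 neutrophil markers 4 rose, with shifts of 0.25 to 2.84 on the injured arrays, lowest on replicate 5, against -0.55 to 0.22 on the controls. Of 8 fibroblast markers 5 rose (0.57 to 0.71 against 0.05 to 0.19), of 7 basal epithelial markers 3 rose (0.12 to 0.38 against -0.24 to 0.06) and of 6 endothelial markers 3 rose (0.20 to 0.50 against -0.09 to 0.08). Macrophage and lymphocyte markers had 1 higher gene each of 9 and of 7, and 4 of 7 mature muscle markers fell. Their part in the rise of the mitosis genes was not tested. At 14 days PI the myoblast shift was still 1.54 to 2.37 on the injured arrays, while that of the mitosis genes was -0.10 to 0.38.

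Naive fibroblasts were the lowest group for these genes. Against the 60-day control mucosa, from rats of the same age, 32 of the 46 were lower, where 26.1% of all genes were, and 1 was higher, where 36.1% were. The median difference was -1.20. Aurkb read 5.43, 5.33 and 5.79 in the 3 naive cultures, far below both mucosa controls, and was lower by 4.35 ± 0.36 (adjusted p = 1.04e-11). Mki67, at 4.55, 4.23 and 4.95 against 8.30 and 8.56 in mucosa, was lower by 3.85 ± 0.36 (adjusted p = 1.44e-10). Cenpf (-3.13 ± 0.32) and Ccna2 (-2.88 ± 0.41) came next. Over the mucosa arrays, Aurkb and Cenpf were the genes least like the other mitosis genes (Pearson r 0.13 and 0.49). The cilia genes most like Aurkb there were lower in the naive cultures too, namely Ak7 (-4.79), Dnah7 (-2.77), Ccdc65 (-0.90) and Odad4 (-0.88). Whether the differences of Aurkb and Cenpf from the mucosa reflect cell division was not tested. Smc4, a condensin subunit, was the gene that was higher (1.02 ± 0.24, adjusted p = 0.000423). Set against the same cultures, injured mucosa at 3 days PI was higher in 44 of the 46 genes, where 27.8% of all genes were, by 5.50 ± 0.29 in Mki67 and 5.09 ± 0.32 in Ccna2. The naive signals of both genes were low on the scale and no detection call was used here, so the size of a difference from the naive cultures is uncertain. Cdc20 (0.18 ± 0.12, adjusted p = 0.205) and Cenpa (0.27 ± 0.20, adjusted p = 0.232) did not pass the test. Tissue and culture differ in cell make-up and growth state, which cannot be told apart here.

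Scar fibroblasts were higher than naive fibroblasts in 33 of the 46 genes and lower in 0, where 2.63% of all genes were higher and 2.84% lower. The median was 1.28, or 2.43-fold, and the cultures did not overlap in 36 genes, against 9.96% of all genes. Ccna2 read 4.43, 4.12 and 4.26 in the naive cultures and 6.76, 7.94, 8.10 and 5.56 in the scar cultures. Every scar culture was above every naive culture, yet the scar cultures spread widely, with replicates 2 and 3 high and replicates 1 and 4 low. Ccna2 was higher by 2.82 ± 0.47 (adjusted p = 0.00885). Mki67, at 6.51, 7.79, 8.09 and 6.03 in scar cultures, had the same order of replicates and was higher by 2.53 ± 0.42 (adjusted p = 0.00816). Kif20b (2.10 ± 0.41, adjusted p = 0.0145) and Ttk (1.94 ± 0.38, adjusted p = 0.0161) followed. Over all 46 genes the median shift was -0.81, -1.03 and -0.60 in the naive cultures and -0.06, 0.70, 0.78 and -0.25 in the scar cultures.

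By role, 8 of 10 kinases and regulators, 5 of 7 checkpoint and passenger genes, 3 of 6 kinetochore genes, 6 of 7 kinesins and spindle genes, 4 of 5 cytokinesis genes, 3 of 6 chromosome structure genes and 4 of 5 anaphase genes were higher in scar fibroblasts. Cenpk had the smallest adjusted p, at 1.26 ± 0.13 (adjusted p = 0.00144), and Smc4 was the only gene with a negative difference (-0.47 ± 0.22, adjusted p = 0.254). Aurkb read 6.33, 7.34, 7.51 and 5.83 in the scar cultures, above the naive cultures but short of the threshold (1.23 ± 0.33, adjusted p = 0.0543). Other cell cycle genes moved less, with 14 of 45 other mitotic genes, 3 of 28 DNA replication genes and 0 of 22 genes of the anaphase-promoting complex and cohesin called. Over all genes, 2.63% were higher and 2.84% lower. The count for the 46 genes depended on the fit. With the 7 naive and scar arrays alone, limma called 3 genes (Cdk1, Cenpk and Nuf2, median 1.28), and 0 with the replicate number as a block (median 1.57). The lognormal-normal model, fitted to the same 7 arrays, called 23 (median 1.28). The count of the main fit fell to 8 without naive replicate 2, 15 without naive replicate 1, 20 without naive replicate 3 or scar replicate 2, and 21 without scar replicate 3, at medians of 1.09 to 1.36. The myoblast markers differed between the cultures in another order, with shifts of 4.41, 0.10, 2.58 and 0.93 in the scar and 1.53, 0.56 and 2.20 in the naive cultures.

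The siRNA cultures had the highest levels of the mitosis genes among all groups, with a median shift of 2.73 to 3.04 in the scramble and 2.79 to 3.03 in the gp46 cultures. Scar fibroblasts given the scramble siRNA were higher than untransfected scar fibroblasts in 45 of the 46 genes and lower in 0, where 16.5% of all genes were higher and 13.6% lower, at a median of 2.59, or 6.03-fold. Mki67 read 10.68, 10.44 and 10.59 in the 3 scramble cultures, close together and above all 4 scar cultures, a difference of 3.46 ± 0.42 (11-fold, adjusted p = 0.000103). Kif15, a spindle kinesin (3.28 ± 0.41, adjusted p = 0.000126), Kif20b (3.13 ± 0.41, adjusted p = 0.000171) and Ccna2 (3.12 ± 0.47, adjusted p = 0.000518) were next. Cenpf, which was not called at 3 days PI in the mucosa, read 10.15, 10.12 and 10.25 in the scramble cultures against 7.26, 8.08, 8.34 and 6.19 in the scar cultures, and was higher by 2.71 ± 0.39 (adjusted p = 0.000362). Aurkb, at 9.18, 9.27 and 9.45, was higher by 2.55 ± 0.33 (adjusted p = 0.000176). Cdc20 was not called on its dim probe set (0.31 ± 0.16, adjusted p = 0.179). All 43 genes that rose at 3 days PI were among the 45 that rose here, an overlap nearly fixed in advance, since 45 of the 46 were called.

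The other cell cycle lists rose in the scramble cultures too, with 41 of 45 other mitotic genes (median 1.88), 27 of 28 DNA replication genes (median 1.92), 16 of 25 G1 and E2F genes (median 0.85) and 13 of 22 genes of the anaphase-promoting complex and cohesin (median 0.30) higher. Among these, Pcna rose by 1.43 ± 0.07 (adjusted p = 7.64e-07) and cyclin D gene Ccnd1 by 1.90 ± 0.23 (adjusted p = 9.18e-05). The inhibitors divided, with 4 of 17 higher and 8 lower, where 16.5% of all genes were higher and 13.6% lower. Cdkn1c fell by 2.47 ± 0.65 (adjusted p = 0.0138) and Cdkn1a by a log2 difference of -0.87 ± 0.16 (adjusted p = 0.00157), while Cdkn3 rose by 1.83 ± 0.18 (adjusted p = 2.58e-05). Of the cell type markers, 5 of 8 fibroblast markers (median -0.34; shifts of 0.82 to 0.94 on the scramble and 1.21 to 1.38 on the scar arrays), 3 of 7 lymphocyte markers (median -0.16) and 1 of 7 mature muscle markers (median -1.62) were lower, and 0 of 5 myoblast markers were called (median -2.14; shifts of 0.38 to 1.06 on the scramble and 0.10 to 4.41 on the scar arrays). In the macrophage, neutrophil, basal and suprabasal epithelial and endothelial lists, at most 1 gene each was called in either direction. Their part in the rise of the mitosis genes was not tested.

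The siRNA against gp46, the rat name for the collagen chaperone encoded by Serpinh1, was compared with the scramble, and no mitosis gene was called. Its target read 12.43, 12.64 and 12.67 in the gp46 cultures and 12.98, 12.96 and 12.93 in the scramble cultures on the brighter probe set, without overlap, a difference of -0.38 ± 0.10 that did not pass the adjustment over all genes (adjusted p = 1). Of the 46 mitosis genes 0 were called, and of 14217 genes 0 (0%) were called by limma. An unadjusted p under 0.05 was found for 299 of all genes (2.1%) and for 0 of the 46, which is close to that share. The lognormal-normal model also called 0 of the 46. The 46 differences ran from -0.25 to 0.24 with a median of -0.01, and their standard errors from 0.12 to 0.51. With 3 cultures a group, even a change of several standard errors could go without a call, as did that of the target (-0.38 ± 0.10). Ccna2 read 10.29, 10.12 and 10.43 with the gp46 siRNA and 10.02, 10.49 and 10.12 with the scramble. The cultures overlapped and the difference was 0.07 ± 0.51.

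**Figure D5:**
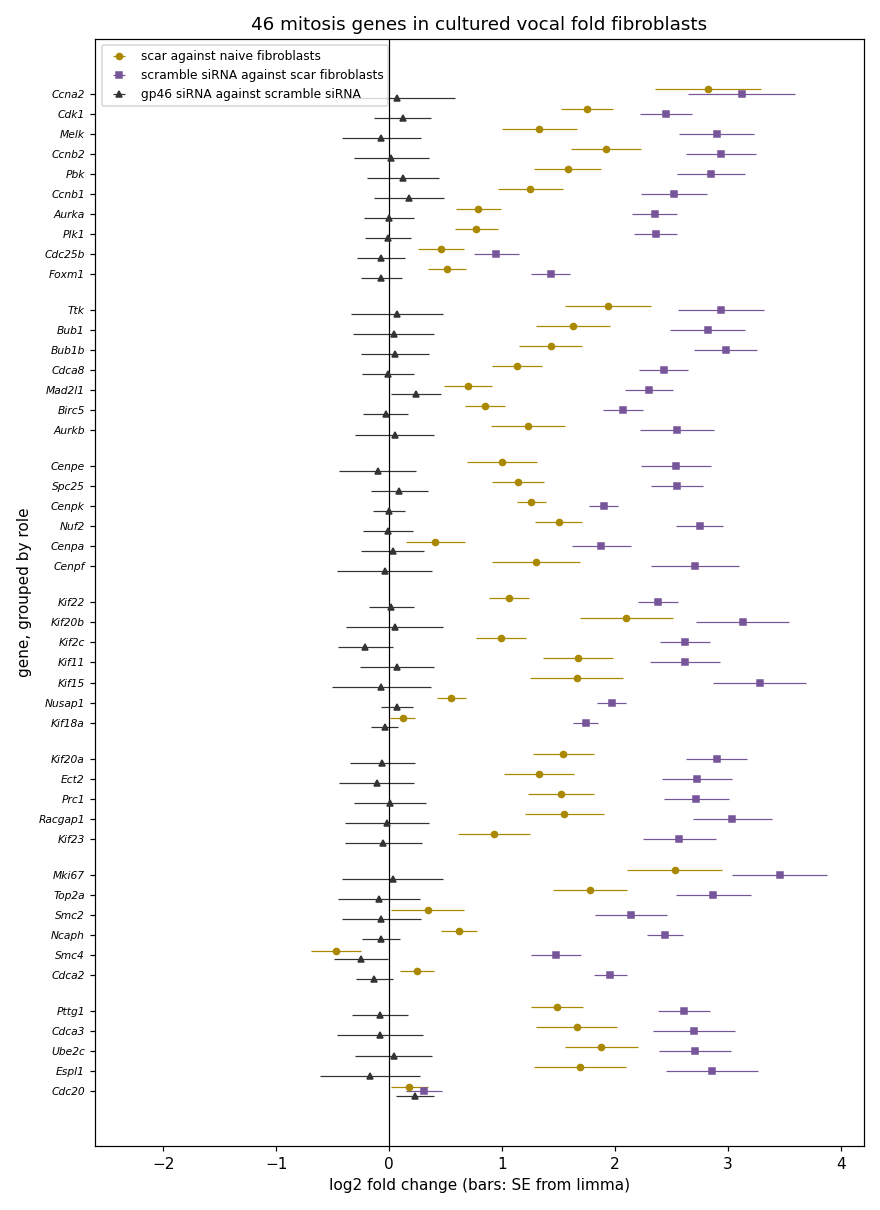
Difference (log2, with its limma standard error) of each of the 46 mitosis genes between scar and naive fibroblasts, between scramble siRNA and scar fibroblasts, and between gp46 and scramble siRNA. The scramble differences lie highest for most genes, with a median of 2.59, the scar differences have a median of 1.28, and the gp46 differences stay between -0.25 and 0.24.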

How the data were processed

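RNA from 36 samples (23 mucosa, 13 fibroblast) was hybridized to Affymetrix rat arrays, 1 array per sample. Per the labels and methods, the authors normalized all arrays together by RMA (affy); versions are not given in the sources used here. The deposited values are log2 signals of 31099 probe sets, and the sorted values of any pair of arrays differed by at most 0.03. Array files hold no depth, so the number of arrays limits the precision.

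After removal of 57 control probe sets, 20826 probe sets had 1 symbol, 436 several and 9780 none. Symbols were updated through the gene number (20758) or accession (2) and kept as given for 66. Each of 14217 genes was represented by the probe set of median mean intensity. The 6 mucosa groups, the 4 fibroblast groups, and all 10 groups for comparisons across tissue and culture were fitted with limma 3.58.1 in R 4.3.3 (lmFit, eBayes, Benjamini-Hochberg over all genes), and a gene was called at an adjusted p under 0.05. Errors in the text are limma standard errors. Groups came from the sample labels, where 5 injured and 2 control arrays are given at 60 days (the methods text gives other numbers). The study's own kind of model, a lognormal-normal model with a posterior probability over 0.95, was an alternative and was written anew. Further alternatives were other probe set rules, a filter on the dimmest 30% of genes, array weights, centring, repeated quantile normalization, fits to the compared groups alone, pooled controls, a replicate block, and leaving out arrays. Each probe set of the 46 genes was also tested on its own, an alternative chosen after seeing the data. The scripts were tested on simulated data.

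Named with values were the 3 genes of largest and the 1 of smallest difference at 3 days PI in each role, every gene that missed the test there, and those called elsewhere (the 4 largest where over 6 were called). Espl1, Cenpa, Top2a at later times, Cenpk and Smc4 in scar fibroblasts, genes listed for not overlapping, Pcna, Ccnd1 and the genes most like Aurkb, Cenpf and Ccna2 are also named, chosen after their values were seen. The genes, lists and tests were chosen with earlier results of these data known. Same-numbered gp46 and scramble cultures correlated in their deviations (0.433, 0.176 and 0.472), a pairing read from the data and not from the labels. The gp46 differences given in the text come from the fit without pairs. The replicate number entered only as a block in an alternative fit. Promoters are those of RefSeq GRCr8. Motifs were counted in Python 3.11.15.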

Additional observations from a re-analysis of the deposited data

Results flagged for a closer look

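The named mitosis genes were examined for arrays far from the rest of their group, in 132 groups of 4 or 5 arrays. Chance marks about 1 in 20 of such groups. Here 8 values were flagged, a count of that order, and several of them fell on the same array. At 3 days PI, replicate 5 was low for 4 genes. Pttg1 read 8.90 there against 9.87 to 10.15 on the other injured arrays, Cdca3 read 9.21 against 9.92 to 10.06, Ube2c read 9.08 against 10.34 to 10.54, and Birc5, survivin, read 7.46 against 8.43 to 8.68. This array is among the 3 that deviate together across all genes, and it had the lowest neutrophil shift of its group (0.25 against 2.02 to 2.84), whose part was not tested. Kif20b was high in replicate 4, at 8.86 against 8.58 to 8.63. At 14 days PI, replicate 4 was low for Pttg1 (7.60 against 8.02 to 8.14), Ube2c (8.09 against 8.63 to 8.84) and Prc1 (9.30 against 9.61 to 9.71).

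The effect of injury differed between time points by a test of the difference itself, in 36 of the 46 genes between 3 and 14 days and in 38 between 3 and 60 days.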

How the results depend on the processing

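The count of genes higher at 3 days PI was 36 to 45 over 11 alternatives, 36 being the count without the dimmest 30% of genes, where 38 of the 46 remained to be tested, and it was 42 to 43 when each array was left out. At 14 days PI the count of 1 became 2 with the mean of a gene's probe sets, 24 with array weights, 5 with only the arrays of the groups compared, 2 with the controls of all ages pooled, 4 with the lognormal-normal model, and 0 to 8 when each array was left out. At 60 days PI the count of 0 became 12 with pooled controls and was 0 without each array in turn. Between control ages it became 2 with array weights and was 0 without each array in turn. The change of the injury effect from 3 to 14 days was called in 33 to 38 genes without each array in turn, that from 3 to 60 days in 34 to 40, and that from 14 to 60 days in 0. Between injured arrays, 14 against 3 days PI gave 42 to 46 and 60 against 14 days PI 0. The shares of all genes called were not counted in the alternative fits.

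For scar against naive fibroblasts the 33 calls became 3 with only those arrays, 0 with the replicate number as a block and 23 with the lognormal-normal model. They ranged from 8 to 39 without each array in turn. Scramble against scar gave 45 each time, gp46 against scramble 0, naive fibroblasts against mucosa 27 to 31, and injured mucosa against naive fibroblasts 43 to 44. Same-numbered scar and naive cultures correlated weakly in their deviations (0.096, 0.119 and 0.139), and injured and control mucosae at 3 days did not all do so (0.310, 0.187 and -0.034), so these numbers were not taken as pairs. With the block 43 genes were called at 3 days PI, 1 at 14 days (Kif15, not Aurkb) and 0 at 60 days and between the siRNA cultures.

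Of 1011 recomputed values of single genes, 958 kept their direction and their side of the threshold, 17 lost the call, 33 gained it and 3 turned. Those that turned were all the change of the Cenpf effect from 3 to 14 days, at -0.01 with array weights, -0.06 without the 3 arrays that deviate together and -0.01 without 14 days control replicate 3, and it was called in none of these and ran from -0.01 to 0.27 over arrays left out in turn. The causes were not tested. The small control groups, of 2 or 3 arrays, and 3 or 4 cultures a group limit what could be detected.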
